A study of Mus musculus with 24 samples.

Results

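Transcripts of splicing factors and RNA-binding proteins were taken as those of protein-coding mouse genes (GENCODE M21, GRCm38) whose symbols begin with Srsf, Hnrnp, Prpf, Sf3, Snrnp, Luc7l, Tra2 or Rbm, without the m6A writer subunits Rbm15 and Rbm15b, and that carried at least 1 m6A peak on an exon of the same strand in at least 1 kidney. Of the 110 annotated genes with these symbols, 60 met this rule, among 7774 protein-coding genes with a peak in the whole series. Their peaks fell on 173 of 16801 loci, where a locus is a stretch covered by overlapping peaks of 1 or more of the 12 kidneys. MeRIP-seq pulls down mRNA fragments that carry m6A with an antibody, and it was run on whole kidneys of male C57 mice (C57BL/6 in the study's methods), 8 weeks old at the start, with 4 mice per group. Control mice received saline daily for 14 days and then vehicle. The injury group (IG) received saline for the same 14 days and then cisplatin at 20 mg/kg, an anticancer drug that injures kidney tubules. The treatment group (TG) received berberine, a plant alkaloid, at 20 mg/kg per day for 14 days and then cisplatin at 20 mg/kg. All kidneys were collected 72 h after the injection, and the groups were compared as IvC (IG against control), TvI (TG against IG) and TvC (TG against control). The cisplatin groups represent a single high dose at a single time, and berberine without cisplatin was not a group of the design.

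Splicing is carried out by the spliceosome, in which small nuclear ribonucleoproteins recognise the ends of introns, while SR proteins, hnRNPs and other RNA-binding proteins help to decide which exons are kept. Many transcripts of this machinery are themselves regulated through their splicing, often by including exons or retaining introns that expose the mRNA to nonsense-mediated decay, the pathway that degrades mRNAs with a premature stop codon. m6A is a methyl mark on adenosine, placed mainly within the motif RRACH (A or G, A or G, A, C, then A, C or T), and the nuclear m6A reader Ythdc1 binds splicing factors.

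The exons on which the results below turn are shown first, on the strand of the gene and as they stand in the GRCm38 genome, with every RRACH motif in capitals. Rbm39 exon 4 of 17 (chr2:156172828-156173022, minus strand) and the coding start of Prpf38b exon 6 of 6 (chr3:108904463-108904762, minus strand, the first 300 bases of a locus of 1822 bp) were listed in all control kidneys and in no IG kidney. Hnrnpk exon 5 of 18 (chr13:58399893-58399990, minus strand) was listed in all TG kidneys and in no control kidney. Luc7l3 exons 8 and 9 of 11 (chr11:94296884-94297167 and chr11:94295920-94296080, minus strand) and Rbm25 exon 11 of 19 (chr12:83668092-83668308, plus strand) scored 3100 or more in most kidneys. Rbm26 exon 5 of 22 (chr14:105153415-105153632, minus strand) was listed in some kidneys in place of its neighbour. Srsf11 exon 9 of 13 (chr3:158016322-158016453, minus strand) was the 1 locus listed in all 12 kidneys of the only Srsf gene with a peak. Luc7l2 exon 8 of 10 (chr6:38598785-38598814, plus strand) is an exon of 30 bp that other annotated transcripts skip.
Rbm39 exon 4: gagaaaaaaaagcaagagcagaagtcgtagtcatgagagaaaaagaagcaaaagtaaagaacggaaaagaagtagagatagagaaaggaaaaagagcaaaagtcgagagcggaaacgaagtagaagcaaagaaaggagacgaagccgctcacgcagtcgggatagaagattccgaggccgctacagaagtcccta
Prpf38b exon 6: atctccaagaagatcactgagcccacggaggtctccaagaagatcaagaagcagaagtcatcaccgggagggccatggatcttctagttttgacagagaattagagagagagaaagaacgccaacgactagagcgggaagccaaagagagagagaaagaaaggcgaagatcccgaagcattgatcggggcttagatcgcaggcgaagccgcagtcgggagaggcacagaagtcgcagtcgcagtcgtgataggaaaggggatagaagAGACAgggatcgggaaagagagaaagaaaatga
Hnrnpk exon 5: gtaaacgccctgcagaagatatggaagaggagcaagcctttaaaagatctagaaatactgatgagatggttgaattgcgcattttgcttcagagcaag
Luc7l3 exon 8: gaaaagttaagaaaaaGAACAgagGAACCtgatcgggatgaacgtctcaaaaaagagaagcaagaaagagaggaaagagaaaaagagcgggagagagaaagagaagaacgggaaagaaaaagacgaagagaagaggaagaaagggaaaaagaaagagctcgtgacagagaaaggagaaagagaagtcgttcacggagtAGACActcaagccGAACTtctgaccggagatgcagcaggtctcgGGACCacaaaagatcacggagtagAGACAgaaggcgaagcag
Luc7l3 exon 9: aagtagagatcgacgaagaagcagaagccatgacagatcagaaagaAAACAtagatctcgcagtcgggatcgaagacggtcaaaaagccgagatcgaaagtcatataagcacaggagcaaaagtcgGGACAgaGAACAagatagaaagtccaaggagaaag
Rbm25 exon 11: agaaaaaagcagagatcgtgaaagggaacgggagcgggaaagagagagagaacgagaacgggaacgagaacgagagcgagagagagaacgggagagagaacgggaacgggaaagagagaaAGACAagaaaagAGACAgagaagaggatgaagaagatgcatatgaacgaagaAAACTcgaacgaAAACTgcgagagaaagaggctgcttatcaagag
Rbm26 exon 5: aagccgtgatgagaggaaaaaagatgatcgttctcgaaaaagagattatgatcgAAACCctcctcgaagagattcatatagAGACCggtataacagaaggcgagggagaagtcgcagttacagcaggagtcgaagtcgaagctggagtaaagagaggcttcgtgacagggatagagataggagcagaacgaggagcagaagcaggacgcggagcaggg
Srsf11 exon 9: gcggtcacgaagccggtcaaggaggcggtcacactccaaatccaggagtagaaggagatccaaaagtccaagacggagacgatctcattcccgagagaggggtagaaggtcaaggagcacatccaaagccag
Luc7l2 exon 8: gtcccgatcacatagcaagaatcccaaaag

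Several of these exons were rich in A and G, up to 83.4% in Rbm25 exon 11, 78.9% in Luc7l3 exon 8 and 76.9% in Rbm39 exon 4. Rbm39 exon 4, Hnrnpk exon 5, Srsf11 exon 9 and Luc7l2 exon 8 held no RRACH motif, while Luc7l3 exon 8 held 6 and Rbm25 exon 11 held 4. A motif match describes the sequence only, and the lack of a match says only that these letters are not in this window.

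Each kidney was represented by its own list of peaks with a score, the negative log10 of the p-value times 10, and by no read counts, so the depth is unknown. The lists were longer in control kidneys (8952 ± 458 peaks, SD, n = 4) than in IG (7422 ± 687) and TG (6380 ± 375) kidneys, and scores were therefore also expressed as a percentile within each list. A score of exactly 3100 occurred in 66 to 116 peaks of each list, which tie in the percentiles, while the highest score of a list was between 3195 and 3233. Between 73.7% and 80.8% of the peaks in these genes matched an annotated exon from end to end, against 62.7% to 66.5% of all peaks. Whether presence at an exon depends on how peaks were placed on exons was not tested. Whole-kidney lists do not tell a change in the number of cells of a type from a change in the RNA of each cell. Of 10 kidney tubule markers, 3 had a peak, and Lrp2, Umod, Slc34a1 and Aqp2 had none, so peaks alone could not check the tissue. The 3 were Slc12a1, listed in 1 control, 4 IG and 0 TG kidneys, Pax8 in 2, 1 and 0, and Cubn in 0, 0 and 1. Of 4 glomerulus markers, Nphs1 was listed in 1, 4 and 2 kidneys and Podxl in 4, 2 and 4. Of 6 leukocyte markers, Itgam was listed in 0, 4 and 4 kidneys and Ptprc in 1, 0 and 0. Of 3 injury markers, Havcr1 was listed in 0, 4 and 3, while the endothelial Pecam1 and Cdh5 were listed in all 12. Their part in the results was not tested.

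The symbol families differed widely in how many genes had a peak. Only 1 of 11 Srsf genes, Srsf11, was listed, whereas the classical SR proteins Srsf1, Srsf2, Srsf3 and Srsf7 and both Tra2 genes, Tra2a and Tra2b, had no peak in any kidney. Of 20 Hnrnp genes, 5 were listed (Hnrnpc, Hnrnpd, Hnrnpk, Hnrnpm and Hnrnpul1), and the abundant Hnrnpa1, Hnrnpa2b1 and Hnrnpu were not. Of 13 Prpf genes, which encode factors of the U4/U6.U5 tri-snRNP and other spliceosome parts, 9 were listed. The U2 snRNP family Sf3 had 5 of 9, the Snrnp family 5 of 7 and the U1-associated Luc7l family 3 of 3. The Rbm family, the largest and most mixed, had 32 of 45 genes and 86 of the 173 loci.

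The 60 genes carried 1 to 11 loci each, and 23 of them carried 1. Rbm27 had the most, with 11 loci over 21 exons. Rbm26, a relative of Rbm27 with a role in nuclear RNA decay, had 9 over 22 exons, Rbm33, a partner of the m6A demethylase Alkbh5, 8 over 19, and Hnrnpm 7 over 16. Of the 173 loci, 38 (22.0%) were listed in all 12 kidneys and 31 (17.9%) in a single kidney. Among 16380 loci of other genes these shares were 14.4% and 23.0%. The 38 recurrent loci lay in 20 genes, of which 9 belonged to the Rbm family, 3 to Prpf, 3 to Snrnp, 2 to Hnrnp, 2 to Luc7l and 1 to Srsf, and no Sf3 gene had such a locus.

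**Figure D1:**
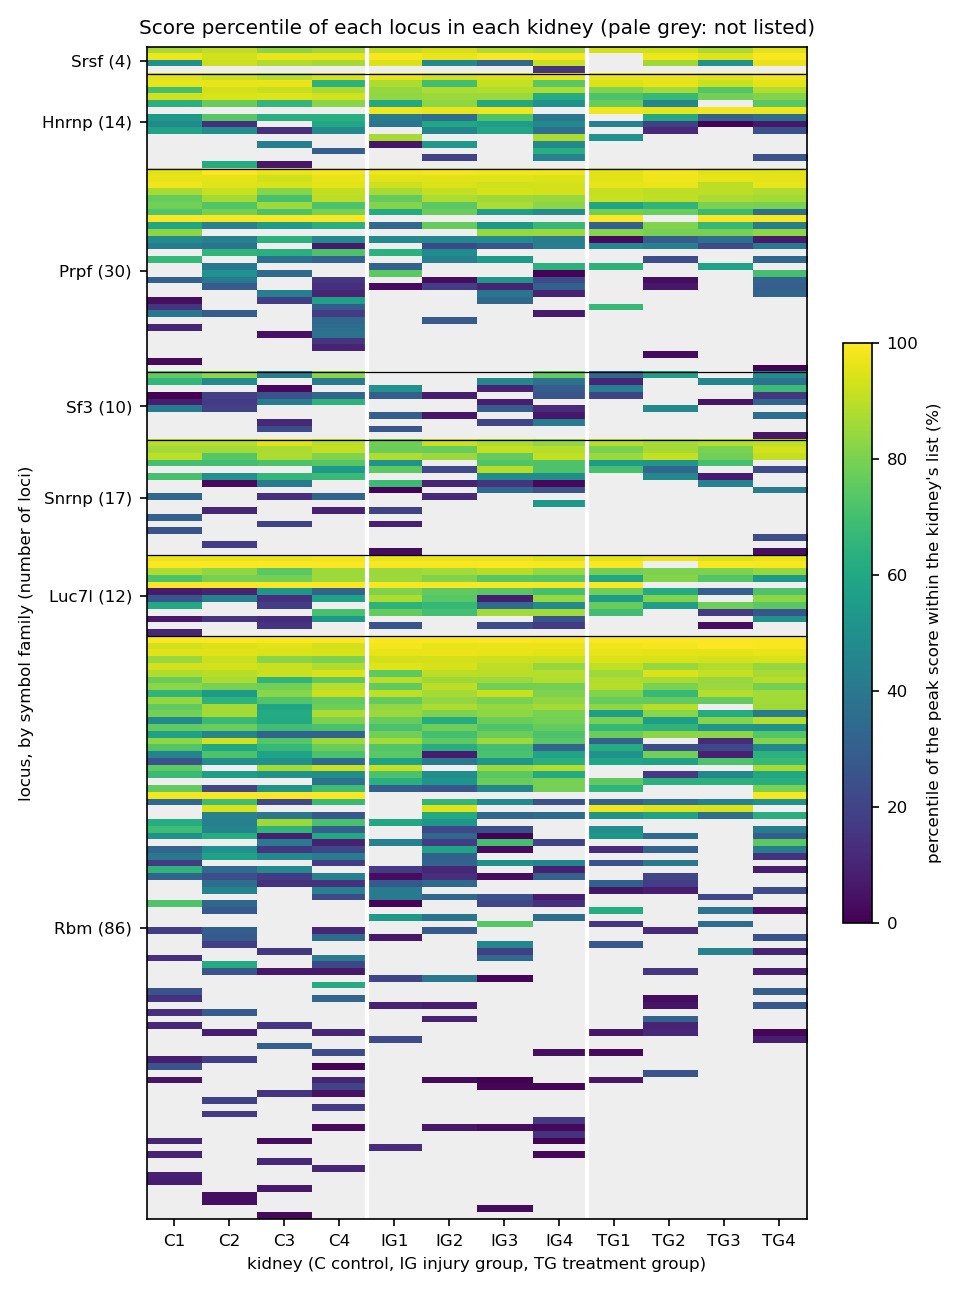
Score percentile (colour, % within the kidney's own list) of the 173 loci (rows, grouped by symbol family and ordered by their mean percentile) in the 12 kidneys (columns, C control, IG and TG), with pale grey where a locus was not listed. The upper rows of most families are filled across all kidneys, 38 rows in all, and the lower rows hold loci listed in 1 or a few kidneys.

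Control kidneys held 99, 98, 95 and 110 peaks in these genes, IG kidneys 87, 89, 93 and 99, and TG kidneys 77, 78, 66 and 95. The group means were 100.5 ± 6.56, 92.0 ± 5.29 and 79.0 ± 11.97 peaks (SD, n = 4). Only TG kidney 4 reached the lowest control, and the control and IG ranges overlapped at 95 to 99. As a share of all peaks on genes these counts were 1.14 ± 0.0442% in control, 1.27 ± 0.156% in IG and 1.25 ± 0.128% in TG kidneys. With every list shortened to its 5901 highest scores, the IvC difference in member peaks turned from -8.5 to 7.5 per kidney and the TvC difference from -21.5 to 4.25. The number of genes with a peak was 43.25 ± 0.957 in control, 43.25 ± 1.71 in IG and 36.25 ± 5.12 in TG kidneys, and within TG it reached from 31 in kidney 3 to 43 in kidney 4. With the shortened lists the TvC difference in genes turned from -7.0 to 2.0, and the TvI difference went from -7.0 to -1.5.

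The strongest locus listed throughout was exon 11 of Rbm25, a protein that acts at the definition of exons and in the choice between Bcl-x isoforms. It scored 3100, 3100, 2791 and 3100 in control kidneys and 3100 in every IG and TG kidney. Scores tied at 3100 cannot show whether the groups differed at this exon. Next came exon 2 of Prpf4b, a kinase that phosphorylates spliceosome proteins (chr13:34883231-34884766, plus strand). Its scores were 1113, 3100, 1571 and 2416 in control, 2199, 2737, 2134 and 2093 in IG, and 1287, 2467, 1298 and 1491 in TG kidneys, and the groups overlapped. Exon 6 of Luc7l2, a U1-associated selector of 5′ splice sites (chr6:38592619-38592795, plus strand), scored from 1252 to 2203 in control, 1230 to 1862 in IG and 1125 to 1925 in TG kidneys. The highest Hnrnp locus was exon 2 of Hnrnpm, an hnRNP that binds GU-rich RNA (chr17:33676766-33677440, minus strand), with scores of 1051, 715, 495 and 1010 in control, 1737, 989, 1037 and 1713 in IG, and 1708, 1768, 1207 and 2669 in TG kidneys. Its lowest TG score was above its highest control score. In the Snrnp family exon 3 of Snrnp27, a tri-snRNP protein (chr6:86681591-86681703, minus strand), scored 521, 521, 1017 and 618 in control, 267, 844, 484 and 377 in IG, and 583, 437, 521 and 744 in TG kidneys. Srsf11 exon 9 scored 420, 578, 314 and 438 in control, 680, 1009, 500 and 455 in IG, and 873, 811, 446 and 1512 in TG kidneys, again with overlap. The stop codon locus of Srsf11 in exon 13 was stronger, with 1650, 808, 1563 and 1759 in control and 3100, 1899, 3100 and 3100 in IG kidneys, but TG kidney 1 did not list it while the other TG kidneys scored 2104, 1192 and 3100. Its IG kidneys were above all control kidneys by score, and by percentile the groups overlapped.

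In IvC, 168 of the loci were listed in at least 1 of the 8 kidneys. Of these, 2 (1.19%) were listed in all control and no IG kidneys, against 2.73% of all 16061 loci compared, and 0 in all IG and no control kidneys, against 1.35%. The 2 loci were Rbm39 exon 4 and Prpf38b exon 6. A pattern of 4 against 0 kidneys gives p = 0.0286 in Fisher's exact test (two-sided), the smallest p of the design, and after Benjamini-Hochberg adjustment of Fisher's exact test over all loci the lowest value in IvC was 0.701. Neither locus passed after adjustment. Presence was compared by locus and not by gene. Rbmy, with 2 loci, was listed on either of them in 0 control, 4 IG and 2 TG kidneys, with a highest score of 192.

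Rbm39 encodes a U2AF-like splicing coactivator, known as the protein that aryl sulfonamide drugs mark for degradation. At exon 4, which is 195 bp long and entirely coding, its scores were 2149, 3100, 3199 and 3100 in control kidneys. It was listed in none of the 4 IG kidneys, and in TG kidney 4 alone, with 3100. The kidneys therefore either showed this exon among the strongest peaks of the list or did not list it at all. The mean score percentile was 99.3 ± 0.647 in control and 24.8 ± 49.6 in TG kidneys (SD, n = 4). Peak numbers run along the genome in each list, so that a missing number can mark a peak that was called but is not in the list. Most numbers are missing in every list, with highest numbers of 18477 to 28164 in lists of 5901 to 9579 peaks. A missing number, here and below, is thus common anywhere and does not place a called peak on the exon. Between the nearest listed peaks around this exon, 1 number was missing within 81.5 kb in IG kidneys 1, 3 and 4, and 0 were missing within 127.7 kb in IG kidney 2. In TG kidneys 1, 2 and 3 the missing numbers were 4, 1 and 1. The other locus of Rbm39, on the 5′ UTR in exon 1 (chr2:156179887-156180240, minus strand), was weak, with scores of 187 and 39.2 in control kidneys 1 and 2, 13.5, 24.8 and 19.7 in IG kidneys 1, 3 and 4, and no TG kidney.

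Prpf38b encodes a protein of the spliceosome with an arginine and serine rich tail. Its only locus, which spans the stop codon in the last exon (chr3:108902941-108904762, minus strand), scored 3100, 2730, 3100 and 3100 in control kidneys. No IG kidney listed it, and TG kidneys 1, 3 and 4 listed it with 3100 each. Unlike Rbm39, the locus was thus present in most TG kidneys, although a pattern of 3 against 0 kidneys cannot pass Fisher's test in this design. Between 5 and 14 peak numbers were missing around the exon in the IG kidneys, over 307 kb or more.

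**Figure D2:**
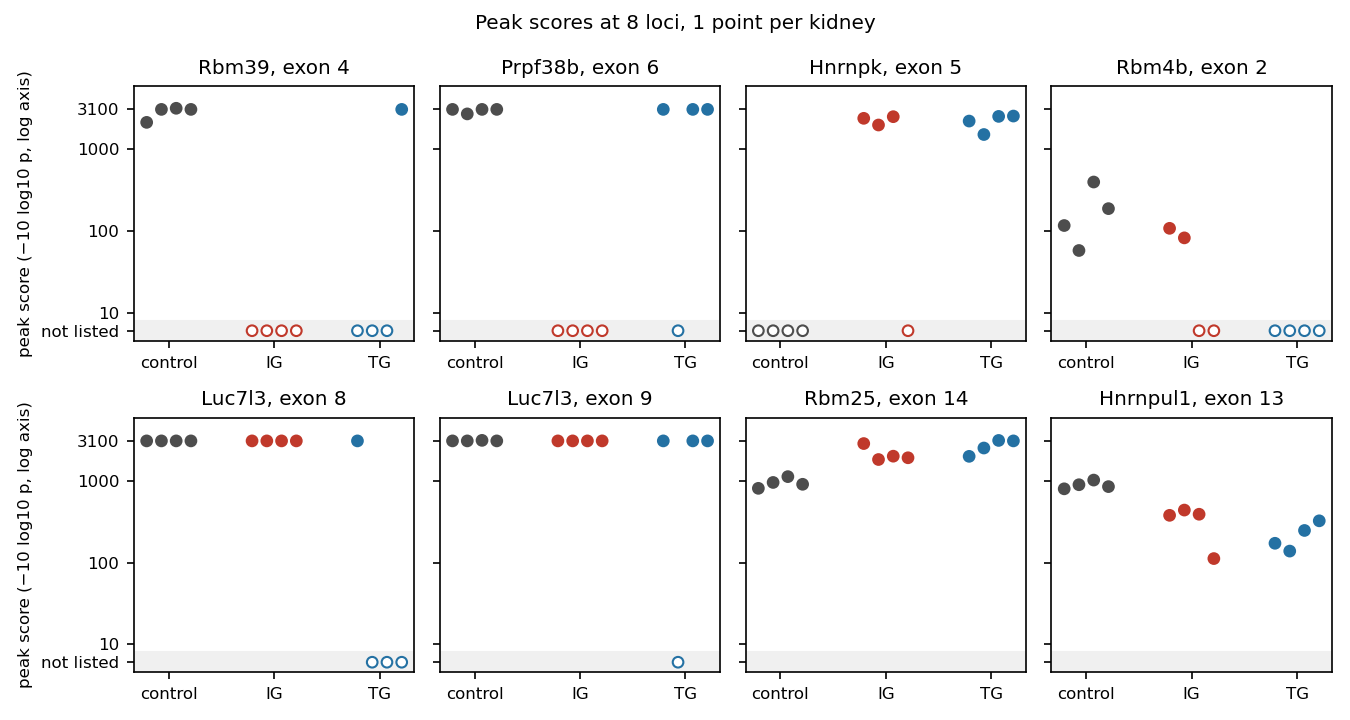
Peak score (vertical log axis, −10 log10 p) at 8 loci in each control, IG and TG kidney, 1 point per kidney, with open points in the grey strip for kidneys that did not list the locus. Control kidneys score from 2149 to 3199 at Rbm39 exon 4 and from 2730 to 3100 at Prpf38b exon 6, and both are open in all IG kidneys. Hnrnpk exon 5 is open in all control kidneys and IG kidney 4.

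By score percentile, set to 0 where a locus was not listed, 9 of the 168 loci lay lower in all 4 IG kidneys than in any control kidney, or 5.36% against 8.84% of all loci, and 5 lay higher, or 2.98% against 3.87%. With every list shortened to its 5901 highest scores 3 of 122 (2.46%) lay lower, against 6.07% of all loci, and 7 (5.74%) higher, against 6.16%. An exact permutation test (two-sided) gives p = 0.0286 for each, and the lowest value after Benjamini-Hochberg adjustment of the permutation test was 0.225, so none passed. Both shares were below those of all loci. The 9 loci held Rbm39 and Prpf38b and both Luc7l3 exons, where every control and IG kidney scored 3100 or more and the mean percentiles of IG and control differed by -0.322 and -0.435. All 8 of these kidneys scored 3100 at exon 8, and all but control kidney 3 did at exon 9. The number of peaks tied at 3100 was 66 to 90 in control and 99 to 116 in IG kidneys, which lowers the percentile of a tied peak. Without both exons 7 loci lay lower.

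Among the others, exon 13 of Hnrnpul1, a relative of Hnrnpu active in the DNA damage response, scored 801, 900, 1026 and 853 in control and 379, 440, 391 and 112 in IG kidneys. In TG kidneys it scored 172, 138, 247 and 325. Its mean percentile was 93.9 ± 0.941 in control, 78.8 ± 11.5 in IG and 74.8 ± 6.45 in TG kidneys (SD, n = 4), and neither cisplatin group overlapped with control. Exon 3 of Snrnp200, the helicase that unwinds U4 from U6, was listed in 4 control kidneys with scores from 74.0 to 174, in 2 IG kidneys with 68.1 and 69.8, and in 2 TG kidneys with 62.3 and 16.6. Exon 3 of Rbm17, a factor in 3′ splice site choice, scored 159, 63.0, 131 and 37.0 in control and 26.02 and 27.29 in IG kidneys 2 and 3. Exon 4 of Rbm48, a protein of the minor spliceosome, scored 50.4 to 97.8 in control kidneys and 35.8 in IG kidney 2. Exon 9 of Sf3a1, a core U2 snRNP subunit, scored 16.9 to 139 in control kidneys and 16.2 in IG kidney 3. With shortened lists, of the 9 loci Rbm39 exon 4, Prpf38b exon 6 and Hnrnpul1 exon 13 still lay lower in IG, and the 6 others, these weaker exons among them, did not.

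The 5 loci that lay higher in IG came from Rbm25, Rbm17, Rbm6, Rbmx2 and Luc7l. Rbm25 exon 14 (chr12:83672734-83672884, plus strand) scored 813, 959, 1130 and 911 in control, 2876, 1833, 2014 and 1925 in IG, and 2004, 2536, 3141 and 3100 in TG kidneys. All IG and TG kidneys were above all control kidneys, with a mean percentile of 94.3 ± 1.06, 97.2 ± 0.595 and 98.7 ± 1.05. Rbm17 exon 4 scored 1195, 1104, 943 and 985 in control and 1894, 2077, 1664 and 1580 in IG kidneys, whereas exon 3 of the same gene lay lower in IG. Rbm6 exon 3, of a gene that regulates alternative splicing, was listed in control kidney 4 only, with 48.1, and in all IG kidneys with scores from 79.8 to 279. TG kidneys listed it with scores from 117.2 to 204. In Rbmx2, an activated-spliceosome protein, the stop codon locus scored 37.6 to 97.0 in control, 170 to 274 in IG and 202 to 327 in TG kidneys. Exon 7 of Luc7l scored 16.3 to 78.6 in control and 171 to 314 in IG kidneys.

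In TvI, 145 loci were compared. Of these 0 were listed in all IG and no TG kidneys, against 0.449% of 13357 loci, and 0 in all TG and no IG kidneys, against 0.225%. By percentile 4 loci (2.76%) lay lower in all TG than in all IG kidneys, against 2.26% of all loci, and 2 (1.38%) lay higher, against 1.32%. With shortened lists 1 of 129 (0.775%) lay lower, against 1.19% of all loci, and 2 (1.55%) higher, against 2.44%. The lower locus was then Luc7l2 exon 5. The lowest adjusted p was 0.798 in the exact permutation test after Benjamini-Hochberg adjustment and 1 in Fisher's exact test. A difference of at least 3 kidneys was found at 10 loci (6.90%) with fewer TG kidneys, against 3.21% of all loci, and at 3 (2.07%) with more, against 1.28%.

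The 4 lower loci were exons 5 and 9 of Luc7l2, exon 4 of Prpf6, which bridges the tri-snRNP, and exon 3 of Rbm26. Luc7l2 exon 9 was listed in all IG kidneys with 240, 172, 434 and 450, in TG kidneys 1, 3 and 4 with 150, 21.8 and 30.6, and in control kidney 4 only, with 185. Control and TG kidneys overlapped at this exon. The 2 higher loci were the start codon exon of Hnrnpm and exon 5 of Rbm27. At both the IG and TG kidneys were separate by percentile only, and their scores overlapped. The Hnrnpm start codon locus scored 526, 167, 708 and 209 in IG and 1160, 1556, 705 and 1573 in TG kidneys. Control kidneys scored 1294, 1296, 1577 and 138, a range that covered both groups. Rbm27 exon 5 scored 305 to 699 in control, 785 to 1045 in IG and 898 to 1188 in TG kidneys.

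In TvC, 165 loci were compared. Rbm4b exon 2 was the only one listed in all control and no TG kidneys (0.606%, against 3.73% of 15156 loci), and Hnrnpk exon 5 the only one listed in all TG and no control kidneys (0.606%, against 0.996%). The lowest adjusted p of Fisher's exact test was 0.605 after Benjamini-Hochberg adjustment. By percentile 8 loci (4.85%) lay lower in TG than in control kidneys, against 11.7% of all loci, and 8 (4.85%) lay higher, against 2.84%. With every list shortened to its 5901 highest scores 3 of 122 (2.46%) lay lower, against 5.72% of all loci, and 16 (13.1%) higher, against 6.69%. The 3 lower loci were Hnrnpul1 exon 13, Rbm48 exon 4 and Rbm4b exon 2. The 16 higher loci included Hnrnpk exon 5, Hnrnpm exon 2, Srsf11 exon 9, Rbm25 exon 14, Luc7l exon 7 and Rbm11 exon 5. No locus passed after adjustment, with 0.197 as the lowest Benjamini-Hochberg adjusted p of the exact permutation test. Each pair of comparisons shares a group of kidneys, so a locus that stands out in more than 1 of them is not a repeated observation.

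Hnrnpk encodes an hnRNP with KH domains that binds C-rich RNA. Its only locus, exon 5, is a coding exon of 98 bp. No control kidney listed it. IG kidneys 1, 2 and 3 listed it with 2409, 1995 and 2524, and the 4 TG kidneys with 2230, 1526, 2544 and 2569. The exon was thus among the strongest peaks wherever it was listed. Around it 1 or 2 peak numbers were missing in the control kidneys and 0 in IG kidney 4, within 137.8 kb or more. Rbm4b, which regulates alternative 5′ and 3′ splice sites, had moderate scores at its start codon exon (chr19:4757246-4758629, plus strand), 116.9, 57.8, 399 and 188 in control and 108 and 82.5 in IG kidneys 1 and 2. IG kidneys 3 and 4 and all TG kidneys did not list it. With a score minimum of 71.3, the median of all lists, it remained in 3 control kidneys.

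Luc7l3, also known as CROP from its overexpression in cisplatin-resistant cells, belongs to the same U1-associated family as Luc7l2. Exon 8 (284 bp) scored exactly 3100 in every control and IG kidney and in TG kidney 1, and was not listed in TG kidneys 2, 3 and 4. Exon 9 (161 bp) scored 3100 in 10 kidneys and 3147 in control kidney 3, and was not listed in TG kidney 2. The 2 exons lie 803 bp apart. TG kidney 2 listed neither, with 4 peak numbers missing within 46.3 kb. Over all loci with a score of at least 1000 in some kidney, 8 of 25 in these genes (32.0%) and 305 of 1039 in the whole series (29.4%) were not listed in at least 1 kidney.

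**Figure D3:**
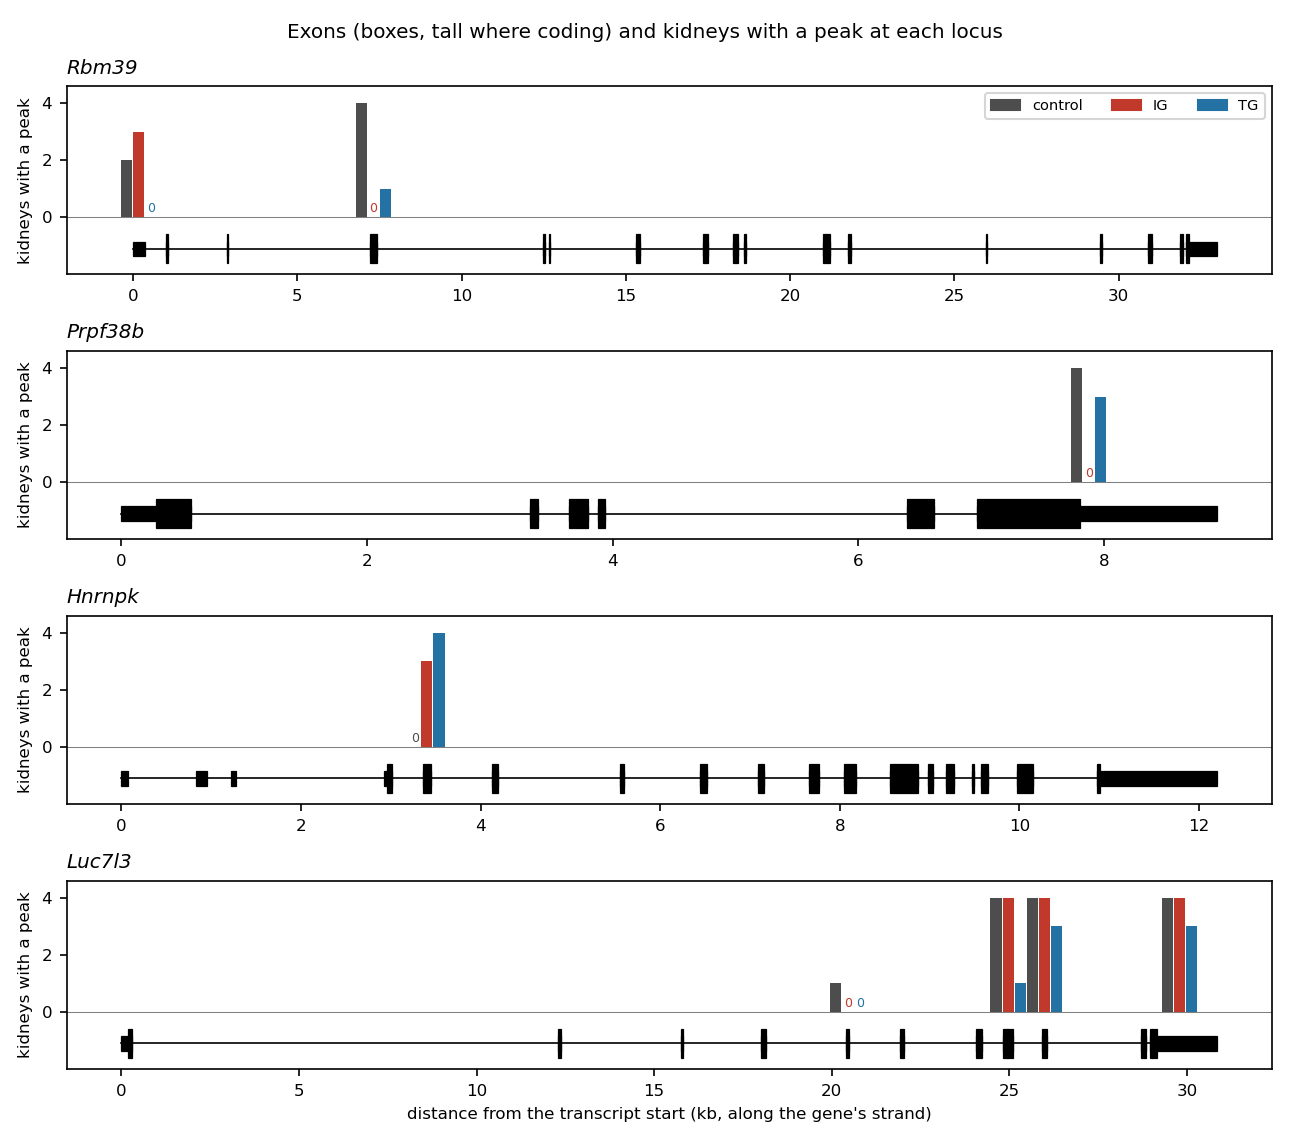
Exon maps of Rbm39, Prpf38b, Hnrnpk and Luc7l3 (black boxes, tall where coding, along the distance from the transcript start in kb) with bars for the number of kidneys, of 4 per group, that listed each locus. Bars are drawn wider than the loci and centred on them, a 0 marks a group without a peak, and the strong loci of Rbm39, Hnrnpk and Luc7l3 are single internal coding exons.

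In Rbm26 and Prpf31 exons close to each other were listed in turn. Every kidney listed either exon 5 or exon 6 of Rbm26, 862 bp apart, and none listed both. Exon 5 was listed in control kidney 2 with 988, in IG kidney 2 with 1350 and in TG kidneys 1, 2 and 3 with 1862, 1292 and 1134. Exon 6 was listed in the other 7 kidneys with scores from 211 to 763. The lowest exon 5 score was above the highest exon 6 score. No peak number was missing between the listed neighbours in any of the 7 kidneys without exon 5. Exons 10 and 12 of Prpf31, a tri-snRNP protein mutated in retinitis pigmentosa, alternated as strictly. Exon 10 was listed in control kidney 2 with 51.3, in IG kidneys 1 and 4 with 36.6 and 125, and in TG kidneys 1 and 3 with 118 and 89.0. Exon 12 was listed in the other 7 kidneys with scores from 27.2 to 148.

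Each peak number occurs once in a list. Whether a peak that spans more than 1 exon was placed on 1 of them was not tested. Of 21 pairs of loci in these genes at most 2 kb apart, each locus in at least 3 kidneys and not both in all 12, 3 (14.3%) were listed in strict turn. Of 1252 such pairs in other genes 12 (0.958%) were. Counted as listed on either exon, the Rbm26 and Prpf31 pairs were present in 4 control, 4 IG and 4 TG kidneys each. The pairs were picked out after their values were seen.

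**Figure D4:**
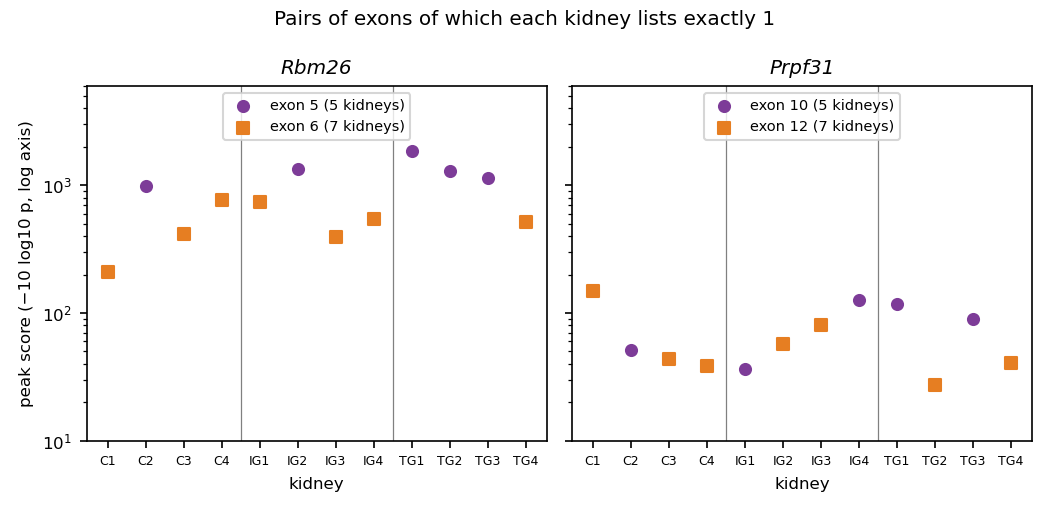
Peak scores (vertical log axis, −10 log10 p) of 2 exons each in Rbm26 and Prpf31 in the 12 kidneys (C control, IG and TG). Every kidney has a point on exactly 1 of the 2 exons, and in Rbm26 the points of exon 5 all lie above those of exon 6.

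Of the 173 loci, 3 (1.73%) touched a stretch annotated solely in nonsense-mediated decay transcripts, against 0.549% of 16380 loci of other genes, and 1 (0.578%) lay on such a stretch for at least 50% of its length, against 0.201%. The 3 were Rbm4b exon 2, with 450 of its 1384 bp on such a stretch, Sf3b1 exon 5 with 56 of 618 bp and an exon of Rbm20, the regulator of titin splicing, with all of its 580 bp. The Sf3b1 locus was listed in 3 kidneys with scores from 18.7 to 49.0 and the Rbm20 exon in control kidney 3 alone with 16.1. The Rbm4b locus was therefore the only one of them listed in more than 3 kidneys.

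Stretches found only in retained-intron or processed transcripts were touched by 14 loci (8.09%, against 4.63% of other loci). The longest was Rbm25 exon 9, with 1580 of 1664 bp on such a stretch, which was listed in all 12 kidneys with scores from 226 to 1130. The Hnrnpm exon 2 locus held 508 such bp of 675, and the Prpf4b exon 2 locus 339 of 1536. In Rbm28, a nucleolar protein that binds spliceosomal snRNAs, and in Snrnp48, a protein of the U11/U12 snRNP, loci with such stretches were also listed in all 12 kidneys. Among the 38 loci in 12 kidneys 6 (15.8%) touched such a stretch, against 4.62% of 2359 recurrent loci of other genes.

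Exons that another annotated transcript skips made up 15 loci (8.67%, against 5.59%). They made up 0 of the 38 loci in all 12 kidneys, against 134 of 2359 (5.68%) for other genes, a difference that was not tested. Hnrnpm exon 13 (54 bp) was listed in 11 kidneys, with scores of 125, 227, 135 and 347 in control, 110, 372, 103 and 72.7 in IG, and 217, 58.5 and 212 in TG kidneys 1, 2 and 4. Luc7l2 exon 8 (30 bp) was listed in all control kidneys with 16.3 to 88.4 but only in IG kidney 4 with 30.2 and TG kidney 4 with 78.7. Srsf11 exon 10 (90 bp) was listed in all but TG kidney 1, with scores from 38.0 to 1965. Rbm6 exon 3, described above, is also such an exon.

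Along the transcript, 131 of the 173 loci (75.7%) lay in the coding sequence without touching a start or stop codon, against 55.8% of other loci. The stop codon was covered by 23 (13.3%, against 25.4%) and the last exon by 24 (13.9%, against 27.8%). The loci had a median length of 176 bp, against 285 bp. This shorter length enters every motif share below.

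Within these exons the RRACH motif was searched on the strand of the gene, with overlapping matches counted. It was found in 155 of the 173 loci (89.6%), against 93.8% of other loci, at a median of 14.8 and 15.9 per kb. The form GGACT, which is counted within RRACH, was found in 20.2%, against 39.2%. Among the 38 loci in 12 kidneys, 4 (10.5%) held GGACT, against 42.7% of recurrent loci of other genes. The recurrent loci without RRACH included exon 4 of Prpf4b, exon 3 of Prpf6, exon 4 of Rbm26, exon 4 of Rbm27 and exon 9 of Srsf11. The median purine content was 57.6%, against 53.9%, and among the 10 loci with a mean percentile of at least 90 it was 66.5%, against 59.3% of 453 others. These shares are descriptions of loci that partly lie in the same genes, and length and base composition differ between the sets.

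**Figure D5:**
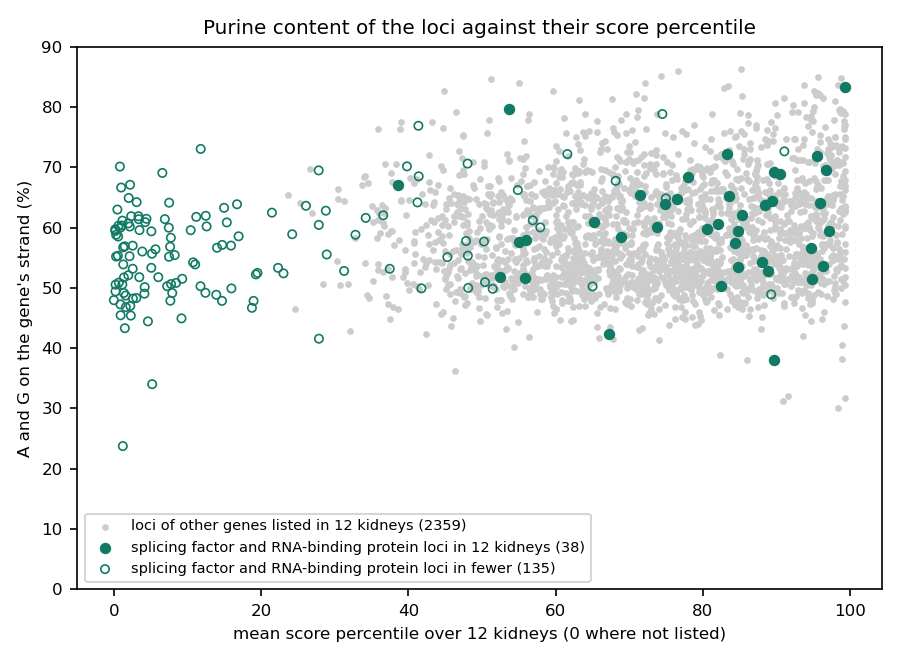
Share of A and G on the gene's strand (%, vertical axis) against the mean score percentile over the 12 kidneys (horizontal axis, 0 entered where not listed) for the 38 loci of these genes in all 12 kidneys (filled), their other 135 loci (open) and 2359 loci of other genes in all 12 kidneys (grey). The filled point at the upper right is Rbm25 exon 11, with 83.4% purines.

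Splicing genes outside the symbol families were counted in the same way. Of 40 splicing regulators such as the kinases Clk and Srpk, 23 had a peak, with 68 loci, of which 24 were listed in all 12 kidneys. Taf15, an RNA-binding protein of the FET family, was listed in 4 control and no IG or TG kidneys, the only one of 68 loci with such a pattern in IvC, and in TvC it was 1 of 2 among 64, with a locus of Mbnl2. Over all loci the shares were 2.73% and 3.73%. Of 52 further spliceosome components 35 had a peak, with 136 loci, of which 37 were listed in all 12 kidneys. Among these U2af2, the large subunit that binds the polypyrimidine tract, was listed in 4 control, 0 IG and 2 TG kidneys, and a locus of the helicase Dhx8 was the only one listed in all IG and no control kidneys. Each was 1 of 126 loci compared, against 2.73% and 1.35% of all loci. In TvI neither list had a locus present in all kidneys of a group and absent from the other. In both lists the loci in all 12 kidneys made up a larger share than the 22.0% of the symbol families and the 14.4% of all loci. This recurrence was thus not particular to the symbol families.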

How the data were processed

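MeRIP-seq peak lists of 12 kidneys were used. The authors trimmed reads with cutadapt 1.9.3, aligned them with HISAT2 2.0.4 to mm10 (GRCm38) and called peaks with MACS, 1 list per kidney, keeping peaks on exons of mRNA. The MACS version, threshold and control library are not given in the sources used here. The score that the authors gave each peak is −10 times the log10 of its p-value, and the lowest scores lay just above 13.01. Read counts were not used here, so precision rests on 4 mice per group. The 12 input libraries were not analysed here.

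Overlap of 1 bp or more, on either strand, placed peaks in a common locus, and peaks were assigned to same-strand exons of 21951 protein-coding genes (GENCODE M21, transcript with the longest CDS numbered). A total of 1197 peaks (1.32%) lay outside such exons. Presence was compared at every locus with Fisher's exact test and score percentiles with exact permutation tests over 70 arrangements, both two-sided, with Benjamini-Hochberg adjustment over all loci. Members and lists were chosen with earlier results of these data known.

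Named by rule were Rbm39 and Prpf38b, loci present throughout a group and absent from the compared group, the leading locus of each family in 12 kidneys, loci on decay-only stretches in at least 3 kidneys of a group and the 5 genes with the most loci, of which 1 is not reported here. Other loci were named after their values were seen. Alternatives were equal list lengths, a score minimum, other joining rules, a difference of 3 kidneys, a replicate block and leaving out each kidney. Joining within 2 kb was added after the data had been seen. Sequences were read from the GRCm38 genome. Software was samtools 1.23.1 with pysam 0.24.0 for sequences, matplotlib 3.10.9 for plots, and scipy 1.17.1 with numpy 2.4.6 on Python 3.11.15 for tests.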

Additional observations from a re-analysis of the deposited data

Results flagged for a closer look

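Of 31 groups of 4 kidneys examined for a kidney far from the others, 3 stood out by Dixon's criterion at 95%, which chance gives in about 1 of 20 groups. The share of gene peaks that lay in splicing factor and RNA-binding protein genes was 1.07% in control kidney 3, below the other control kidneys. At Prpf4b exon 2 the score percentile of IG kidney 2, 98.11, and that of TG kidney 2, 98.02, were above the others of their group.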

How the results depend on the processing

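The lists hold no depth, scores tied at 3100 hide differences among the strongest peaks, and absence from a list is not absence of methylation. Rbm39 exon 4, Prpf38b and Hnrnpk kept their numbers of kidneys per group under equal list lengths, the score minimum, and joining within 100 bp, by reciprocal overlap and by strand. The 5′ UTR locus of Rbm39 fell from 3 IG kidneys to 1 with equal list lengths and 0 with the score minimum.

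The loci listed in all kidneys of a group and none of the other numbered, lost and gained, 2 and 0 in IvC, 0 and 0 in TvI and 1 and 1 in TvC. With equal list lengths 1 was gained in IvC (Rbm6 exon 3) and 2 in TvC, and the score minimum also gave 1 and 2. A reciprocal overlap of 50% gave 1 lost and 1 gained in TvI, both pieces of the Hnrnpm start codon locus. Joining within 2 kb gave 2 lost in TvC. A difference of 3 kidneys gave 7 and 9 in IvC, 10 and 3 in TvI, and 10 and 3 in TvC. Of the loci compared these were 4.17% and 5.36% in IvC, against 8.95% and 3.82% of all loci, 6.90% and 2.07% in TvI, against 3.21% and 1.28%, and 6.06% and 1.82% in TvC, against 11.9% and 2.82%. The same-number kidneys correlated at -0.0336 to 0.0925. These values gave no clear sign of a pairing, and they cannot show that the numbers mark no shared batch. With a replicate block, whose smallest p is 0.125, 0 loci passed in either test. Leaving out 1 kidney, which loosens the rule, gave 2 to 4 lost and 0 to 4 gained in IvC (4 lost without IG kidney 4; 4 gained without control kidney 4, 2 without IG kidney 3 or 4 and 1 without IG kidney 2), 1 to 2 and 0 to 2 in TvI (2 lost without TG kidney 3 or IG kidney 3 and 1 without any other, 2 gained without TG kidney 2 and 1 without TG kidney 3), and 1 to 4 and 1 to 2 in TvC (4 lost without TG kidney 4, 3 without control kidney 2, 2 without control kidney 1 or 3 or TG kidney 1 or 2, and 2 gained without control kidney 1 or 4).

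Loci with percentiles that did not overlap, lower and higher, were 9 and 5 in IvC, 4 and 2 in TvI and 8 and 8 in TvC. With equal list lengths the lower numbers were 3, 1 and 3 and the higher TvC number 16, and the score minimum gave 1 higher in TvI. Leaving out 1 kidney gave 9 to 16 and 6 to 12 in IvC (16 and 12 without IG kidney 2, 14 lower without control kidney 3, 9 higher without IG kidney 4 and 8 without IG kidney 3 or control kidney 2 or 4), 6 to 9 and 2 to 6 in TvI (over 1.5 times the number without any kidney but TG kidney 1 or 3 for the lower loci, and 4 to 6 higher without TG kidney 1, 2 or 3 or IG kidney 2), and 9 to 14 and 8 to 11 in TvC (14 lower without TG kidney 4 or control kidney 3, 13 without control kidney 2).

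The differences in peaks per kidney were -8.5 in IvC, -13.0 in TvI and -21.5 in TvC. They became 7.5, -3.25 and 4.25 with equal list lengths and -1.75, -6.0 and -7.75 with the score minimum. The share differed by 0.131 percentage points in IvC and 0.118 in TvC, and by 0.262 and 0.332 with the score minimum. It was 0.0570 in IvC without IG kidney 4 and 0.0592 in TvC without TG kidney 4. The TvI share difference of -0.0136 ranged from -0.0721 to 0.0606 on leaving out 1 kidney and was 0.0699 with the score minimum, so its sign is not fixed. The genes with a peak differed by 0.0, -7.0 and -7.0, by 3.5, -1.5 and 2.0 with equal list lengths, and by 1.5, -2.25 and -0.75 with the score minimum. Leaving out 1 kidney moved the peak differences between -10.8 and -5.33 in IvC, -18.3 and -8.67 in TvI, and -26.8 and -17.2 in TvC. Under the score minimum Rbm4b was listed in 3 control kidneys and was no longer a TvC loss, while Snrnp200 exon 3 became one. The causes were not tested.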
